A study of Mus musculus with 4 samples.

Results

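The mitochondrial genome encodes 37 genes, and all of them were found among the 51912 Ensembl genes of an RNA sequencing series on Fam122a in the mouse. The cells were long-term haematopoietic stem cells (LT-HSCs), which renew themselves and give rise to every blood lineage. The 37 genes were chosen by name alone, as every gene whose GRCm38 symbol starts with mt-, and comprised 13 mRNAs, 2 rRNAs and 22 tRNAs. The 4 libraries were 2 of Fam122a knockout (KO) and 2 of wild-type (WT) LT-HSCs. All 4 came from C57BL/6 mice aged 8 to 12 weeks, each from cells pooled from 3 animals, and were sorted as LSK cells (no lineage markers, Sca1 and Kit present) that lacked CD34 and Flk2. The question was how loss of Fam122a changes gene expression in these cells. The Fam122a protein is known to inhibit PP2A, a phosphatase. How the Fam122a allele was made, and in which cells it was deleted, is not given in the sources used here.

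Mitochondrial DNA is a small circle that is read from both strands into long precursors, from which tRNAs are cut out like punctuation marks to release the rRNAs and mRNAs between them. Its mRNAs encode core subunits of respiratory complexes I, III and IV and of the ATP synthase, complex V. All other subunits, and every protein that copies, reads or translates this genome, come from nuclear genes. LT-HSCs are known for relying on glycolysis and for keeping mitochondrial activity low while they are dormant.

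Values are in FPKM, in which fragments are divided by gene length and by sequencing depth, a unit inferred from the values themselves. Libraries are written as KO 1, KO 2, WT 1 and WT 2. WT 2 stood apart from the other libraries. Over 18214 genes its log2 values had a Pearson correlation of -0.165 and -0.163 with KO 1 and KO 2 and of 0.131 with WT 1, against 0.967 between the KO libraries and 0.834 and 0.824 between each KO library and WT 1. Stem cell markers were uneven in WT 2. Ly6a, the Sca1 gene of the sort gate, was at 229.9 and 205 FPKM in KO 1 and KO 2 and at 201 and 0 FPKM in WT 1 and WT 2, and Kit was at 93.5 and 129 FPKM in KO and at 81.7 and 2.26 FPKM in WT. Other markers were highest in WT 2, such as Mecom, at 35.0 and 36.3 FPKM in KO and 46.8 and 254 FPKM in WT, and Fgd5, at 4.86 and 3.58 FPKM in KO and 3.83 and 67.6 FPKM in WT. The 12 markers summed to 548 and 555 FPKM in KO and 594 and 488 FPKM in WT. In WT 2 most of that sum came from Mecom, Tek, Fgd5 and Mllt3, at 254, 79.7, 67.6 and 58.9 FPKM. The similar sums thus do not mean similar levels of each marker. Of these 12, 11 and 12 were at 1 FPKM or more in KO 1 and KO 2, and 11 and 8 in WT 1 and WT 2. Cd34, whose product the gate left out, was at 87.7 and 62.1 FPKM in KO, against 179 and 18.2 FPKM in WT. Markers of neutrophils and red cells, lineages that the gate was set to leave out, were high in KO 1, KO 2 and WT 1, as given below. Fam122a itself was listed at 0 in both KO libraries and at 18.4 and 7.46 FPKM in WT. Values below are therefore given for each library, and the main comparisons also without WT 2. In bulk RNA, fewer cells of a type and less RNA per cell cannot be told apart.

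The mitochondrial genes have nuclear look-alikes, and these shape several values below. A stretch of chromosome 1 (GRCm38 chr1:24611535-24616197, minus strand) holds 7 annotated pseudogenes that are near-identical to mitochondrial mRNAs or parts of them. In order along the mitochondrial genome they match mt-Co1, mt-Co2, mt-Atp6, mt-Co3, mt-Nd3, mt-Nd4l and mt-Nd4. Over the aligned bases, 5 of the 7 copies were identical to the mitochondrial gene, namely those of mt-Co2 (681 bases), mt-Atp6 (678 bases), mt-Co3 (783 bases), mt-Nd4l (294 bases) and mt-Nd4 (876 bases). Reads from such stretches cannot be told apart by sequence, so the values of these genes are uncertain by themselves.

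The gene mt-Nd4l (chrM:9877-10173, plus strand) and its copy Gm10222 (chr1:24612407-24612700, minus strand) come first because the whole value of this pair was listed under the copy. All sequences are from the GENCODE M21 transcripts of GRCm38. The copy is the same as the first 294 bases of mt-Nd4l, and capitals mark the bases past its end.
mt-Nd4l: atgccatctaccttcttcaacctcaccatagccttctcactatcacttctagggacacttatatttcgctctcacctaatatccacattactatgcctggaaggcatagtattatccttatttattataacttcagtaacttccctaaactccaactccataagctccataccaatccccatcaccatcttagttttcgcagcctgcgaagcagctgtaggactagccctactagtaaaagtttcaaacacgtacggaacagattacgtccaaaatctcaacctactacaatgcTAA
The gene mt-Nd3 (chrM:9459-9806, plus strand) and its copy Gm28438 (chr1:24612775-24613119, minus strand) are shown by their first 60 bases because a single substitution separates them. It is T3C, with positions counted from 1 at the 5′ end of mt-Nd3 and the base of mt-Nd3 first. Capitals mark that base.
mt-Nd3: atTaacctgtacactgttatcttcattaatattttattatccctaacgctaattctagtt
Gm28438: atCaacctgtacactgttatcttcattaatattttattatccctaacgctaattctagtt
The copy of mt-Co1 (chrM:5328-6872, plus strand), Gm29216 (chr1:24615706-24616197, minus strand), covers only its last part. From base 1063 of mt-Co1 onward, 483 bases aligned with 1 mismatch, A1066T. The first 40 bases of the copy are set beside bases 1054 to 1093 of mt-Co1, with the 6 differing bases in capitals. These were the only differences over the 492 bases of the copy.
mt-Co1: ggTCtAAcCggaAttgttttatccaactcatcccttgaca
Gm29216: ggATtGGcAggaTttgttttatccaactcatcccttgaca

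Transcripts of the mitochondrial genome held a similar share of the summed FPKM in both KO libraries, a larger share in WT 1 and a small one in WT 2. All 37 genes together held 1.39% and 1.40% in KO 1 and KO 2, against 2.18% and 0.155% in WT 1 and WT 2. The KO libraries thus lay between the WT libraries, and the means were 1.39% ± 0.00537 in KO and 1.17% ± 1.43 in WT (SD, n = 2 each). The difference of 0.225 percentage points was far smaller than the spread between the WT libraries (two-sided exact permutation test, p = 1.0). It was 0.0498 percentage points with the sum over Ensembl genes as the denominator, where WT 2 held 0.336%, and 0.456 percentage points with the chromosome 1 copies added. With 2 libraries against 2, this test cannot give a p below 0.333. Against WT 1 alone, the difference was -0.787 percentage points, which rests on a single WT library.

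The share, as listed, was made up mostly of mRNA. How well the kit captures each RNA class was not tested, so these shares do not give the amounts of each class in the cells. The mRNAs held 1.26% and 1.3% of the summed FPKM in KO 1 and KO 2, against 1.97% and 0.133% in WT 1 and WT 2. The rRNAs held 0.124% and 0.0990% in KO, against 0.208% and 0.0215% in WT. The 22 tRNAs were listed at 0 in every library. The chromosome 1 copies held less than the mitochondrial genes themselves in every library, at 1.02% and 0.919% in KO 1 and KO 2 and 1.45% and 0.0280% in WT 1 and WT 2. Counting the copies in, the total came to 2.41% and 2.31% in KO, against 3.63% and 0.183% in WT, in the same order of libraries.

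**Figure D1:**
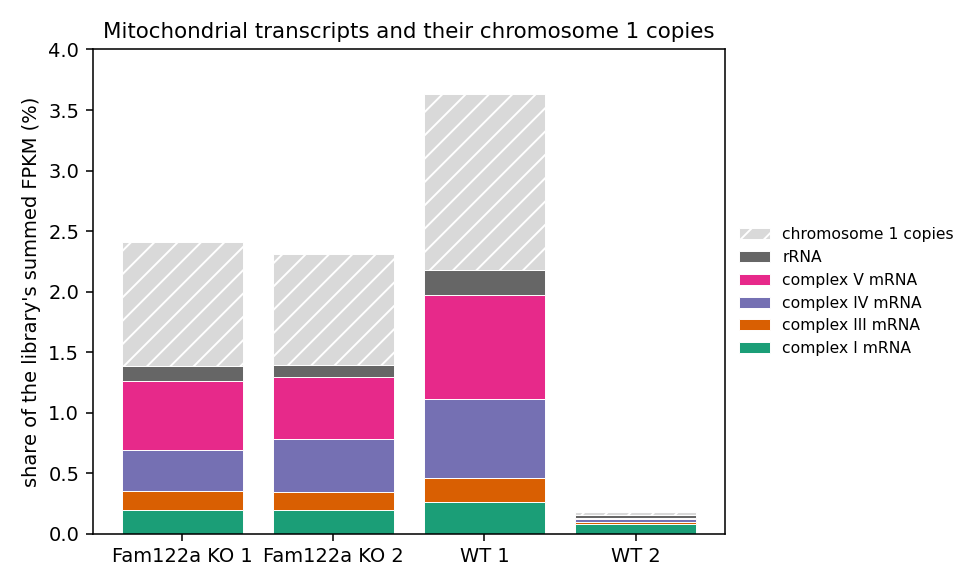
Stacked bars give the share of each library's summed FPKM (y axis, percent) held by the mitochondrial mRNAs of each respiratory complex, the mitochondrial rRNAs and the 7 chromosome 1 copies, for 2 Fam122a KO and 2 WT libraries (x axis). With the copies, the bars reach 2.41% and 2.31% in KO, against 3.63% in WT 1 and 0.183% in WT 2.

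By complex, the same order of libraries held for complexes I, III, IV and V. Complex V mRNA held 0.574% and 0.509% of the summed FPKM in KO 1 and KO 2 and 0.854% and 0.0150% in WT 1 and WT 2. Complex IV mRNA held 0.335% and 0.445% in KO, against 0.655% and 0.0238% in WT. Complex I mRNA, although it comes from 7 genes, held only 0.199% and 0.198% in KO, against 0.262% and 0.0821% in WT. Complex III mRNA, from the single gene mt-Cytb, held 0.155% and 0.144% in KO, against 0.200% and 0.0123% in WT. These values leave out what was listed under the copies of complex I, IV and V genes. Complex I stood out in WT 2, where it held more than the other complexes together.

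No mitochondrially encoded gene passed the test between KO and WT. Groups were compared with limma on log2(FPKM + 1), on which fold changes of low genes are understated, with Benjamini-Hochberg adjustment over all genes at 1 FPKM or more in at least 2 libraries. Of 37 members, 14 passed this filter, namely 12 mRNAs and both rRNAs. With all 4 libraries limma called 0 of these 14, as it called 0 of 18214 genes (0% higher and 0% lower). None of the 14 had an unadjusted p under 0.05, although 4070 of all genes did, and their adjusted p ran from 0.502 to 0.989. The median log2 difference of the 12 mRNAs was 0.26, with 8 above and 4 below 0, beside a median of 0.22 over all genes tested. The intervals of these differences were wide: the narrowest, of mt-Nd6, ran from -4.45 to 2.7.

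Set against WT 1 alone, every detected member was lower in KO. Without WT 2 the 12 mRNAs had log2 differences from -1.36 to -0.59, with a median of -0.79 beside a median of 0.12 over all genes. Limma called 0 of the 14 members, against 1.42% of 13848 genes called lower and 0.181% called higher. The smallest adjusted p was 0.0698, of mt-Co3. By unadjusted p under 0.05, 13 of the 14 were lower, mt-Nd3 being the exception, beside 11.5% of all genes. Both KO libraries were below WT 1 in 13 of the 14, again all but mt-Nd3, beside 49.4% of all genes. These values assume that a single WT library varies like the KO libraries. The 14 members are read from 1 genome in long shared precursors, so they are not 14 independent observations. WT 1 also had a larger FPKM total than the KO libraries. After scaling to equal totals over Ensembl genes, a setting chosen after the data were seen, the mRNA median without WT 2 was -0.55 beside 0.33 over all genes. It thus lay 0.88 below the median of all genes, against 0.90 before scaling. In that setting 2 members fell by limma, mt-Rnr2 (log2 difference -1.03, SE 0.20, adjusted p = 0.0459) and mt-Co3 (-0.91, SE 0.17, adjusted p = 0.0447), against 3.93% of all genes called lower and 8.23% called higher.

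Set against WT 2 alone, most members went the opposite way. Without WT 1, limma called 11 of the 14 members, of which 10 were higher and 1, mt-Nd6, lower in KO. In that setting 57.4% of 13875 genes were called higher and 22.7% lower. The direction of every mitochondrial mRNA but mt-Nd3 and mt-Nd6 therefore depended on which WT library was used.

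**Figure D2:**
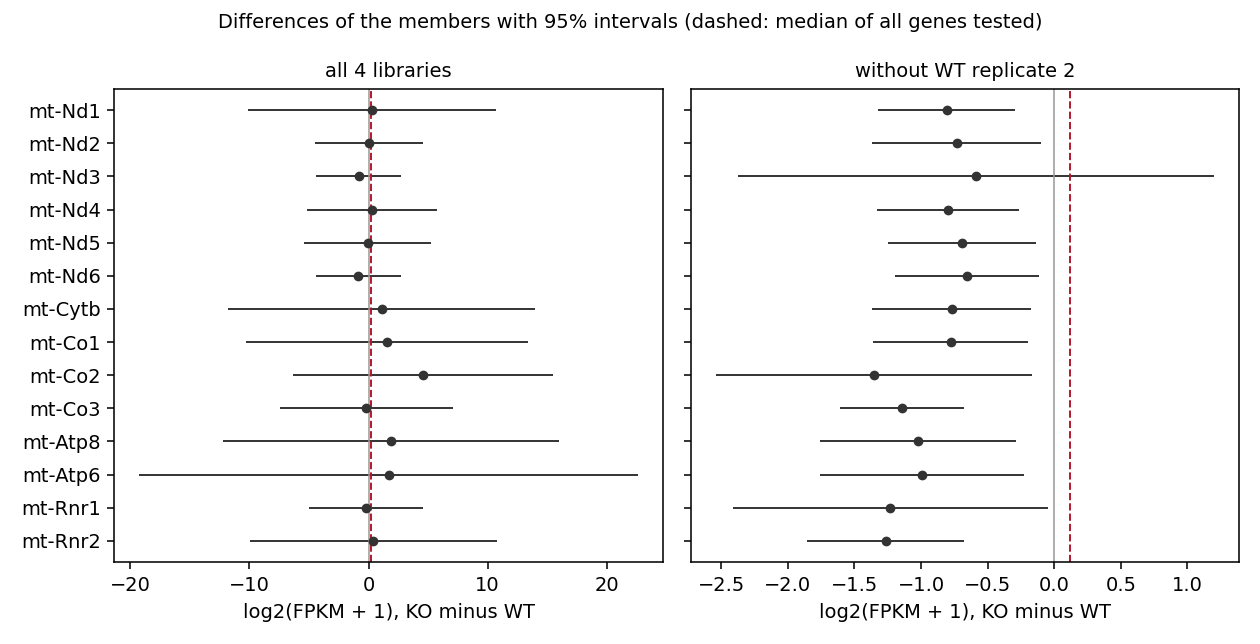
Points give the log2 difference of FPKM + 1, KO minus WT (x axis), of the 14 members that passed the filter (y axis), with 95% intervals from limma, with all 4 libraries on the left and without WT replicate 2 on the right. Dashed lines mark the median of all genes tested, 0.22 and 0.12. On the left every interval spans 0, and on the right every point lies below 0. The x axes differ in scale.

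Complex I, the NADH dehydrogenase that feeds electrons into the chain, has 7 mitochondrial genes. The gene mt-Nd1 (chrM:2751-3707) was at 700.4 and 744 FPKM in KO 1 and KO 2, against 1265 and 285 FPKM in WT 1 and WT 2. The gene mt-Nd2 (chrM:3914-4951) was at 221 and 168 FPKM in KO, against 321 and 109.8 FPKM in WT. In both genes the KO libraries lay between the WT libraries, and the KO means were 0.571 and 0.606 of WT 1. The gene mt-Nd4 (chrM:10167-11544) was at 302 and 253 FPKM in KO, against 481 and 109.95 FPKM in WT. The gene mt-Nd5 (chrM:11742-13565), the longest of the 13 mRNAs, was at 274 and 224 FPKM in KO, against 400.1 and 173 FPKM in WT. These 2 also lay between the WT libraries in KO, at 0.577 and 0.621 of WT 1.

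The other complex I genes behaved differently. The gene mt-Nd3 (chrM:9459-9806) was at 52.7 and 140.2 FPKM in KO 1 and KO 2, against 129.98 and 183 FPKM in WT 1 and WT 2, so that KO and WT overlapped. Its KO values differed 2.66-fold from each other, the widest gap between the KO libraries among the members above 0. The gene mt-Nd4l (chrM:9877-10173) was listed at 0 in every library, while its copy Gm10222 was at 342 and 271 FPKM in KO and 548 and 165 FPKM in WT. A value of 0 for mt-Nd4l therefore says nothing about whether it was transcribed.

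The gene mt-Nd6 (chrM:13552-14070) is the only mRNA read from the other strand, as the annotation gives it. It was at 103 and 84.6 FPKM in KO 1 and KO 2, against 148 and 199 FPKM in WT 1 and WT 2. It was the only member with both KO libraries below both WT libraries, a pattern found in 35.7% of all genes tested. Its log2 difference was -0.87 (SE 1.42), with an adjusted p of 0.680 by limma. The library kit does not mark strand, so fragments anywhere in mt-Nd6 cannot be assigned to a strand. Its value, and its ratio to mt-Nd5, may therefore include transcripts of the other strand. The annotated end of mt-Nd6 also overlaps that of mt-Nd5. The ratio of mt-Nd6 to mt-Nd5 FPKM was 0.376 and 0.378 in KO, against 0.369 and 1.152 in WT. KO 1, KO 2 and WT 1 were thus alike in this ratio, and WT 2 stood apart.

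Complex III passes electrons to cytochrome c, and its single mitochondrial gene encodes cytochrome b. This gene, mt-Cytb (chrM:14145-15288), was at 1291 and 1175 FPKM in KO 1 and KO 2, against 2101 and 158 FPKM in WT 1 and WT 2. KO lay between the WT libraries, at 0.587 of WT 1 and 7.80 times WT 2. No annotated copy on chromosome 1 matched it.

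Complex IV, cytochrome c oxidase, hands electrons to oxygen, and its 3 mitochondrial genes encode its catalytic core. The gene mt-Co1 (chrM:5328-6872) was at 1285 and 1256 FPKM in KO 1 and KO 2, against 2181 and 84.7 FPKM in WT 1 and WT 2. The KO libraries were within 1.02-fold of each other and between the WT libraries. The gene mt-Co2 (chrM:7013-7696) was at 1138 and 1991 FPKM in KO, against 3854 FPKM in WT 1, and was listed at 0 in WT 2. The gene mt-Co3 (chrM:8607-9390) was at 362 and 386 FPKM in KO, against 829 and 223 FPKM in WT. Each of these 3 genes has a copy on chromosome 1, and for mt-Co2 and mt-Co3 the values are taken up again with that of the copy.

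Complex V makes ATP, and its 2 mitochondrial genes encode parts of its proton channel that overlap in the genome. The gene mt-Atp6 (chrM:7927-8607) had the highest FPKM of any member outside WT 2, at 2847 and 2568 FPKM in KO 1 and KO 2, against 5387 and 131 FPKM in WT 1 and WT 2. Among 51912 Ensembl genes it ranked 20 and 23 in KO, against 14 and 634 in WT. The gene mt-Atp8 (chrM:7766-7969) was at 1932 and 1588 FPKM in KO, against 3563 and 62.9 FPKM in WT. At 204 bases it is shorter than the fragments of these libraries, as inferred below, so its level cannot be compared with that of longer genes. Both genes lay between the WT libraries in KO, at 0.503 and 0.494 of WT 1.

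The rRNAs of the mitochondrial ribosome followed the mRNAs. The small-subunit rRNA, mt-Rnr1 (chrM:70-1024), was at 244 and 131 FPKM in KO 1 and KO 2, against 421 and 103 FPKM in WT 1 and WT 2. The large-subunit rRNA, mt-Rnr2 (chrM:1094-2675), was at 792 and 677 FPKM in KO, against 1761 and 174 FPKM in WT. Both were between the WT libraries in KO. With them, 12 of the 14 members above 0 lay between WT 2 and WT 1 in KO, beside 12.7% of all genes tested. Members of 1 genome are not independent of each other, so this count is a description only. The log2 ratio of rRNA to mRNA summed FPKM was -3.34 and -3.71 in KO, against -3.24 and -2.63 in WT. Both KO values were below both WT values, with means of -3.53 ± 0.26 in KO and -2.94 ± 0.43 in WT (SD, n = 2 each). That is the smallest p 2 against 2 libraries allow (two-sided exact permutation test, p = 0.333), and the gap between KO 1 and WT 1 was smaller than that between the KO libraries. Without WT 2 the difference was -0.28, against -0.59 with all 4 libraries. With all 4 libraries it was -0.38 without the mRNAs that share sequence with a chromosome 1 copy, and -0.87 with the copies added.

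**Figure D3:**
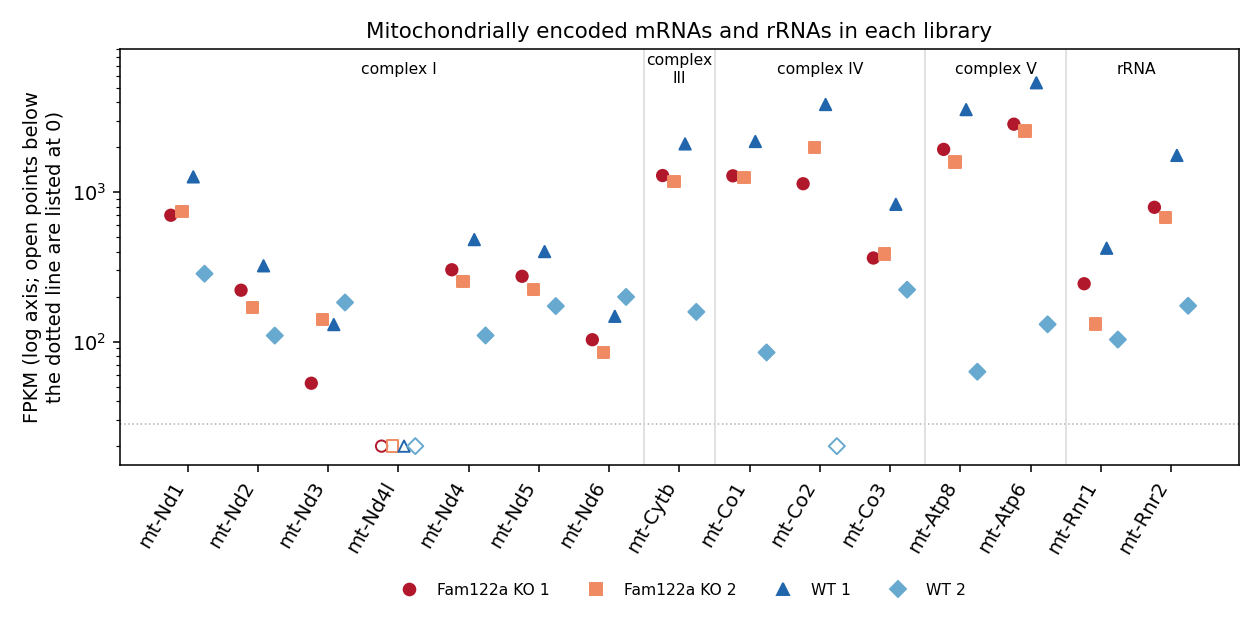
Points give the FPKM (y axis, log scale) of the 13 mRNAs, grouped by respiratory complex, and the 2 rRNAs (x axis) in each Fam122a KO and WT library, and open points below the dotted line are listed at 0. The KO libraries sit below WT 1 in 13 of the 14 genes above 0, and WT 2 spans only 62.9 to 285 FPKM outside its value of 0 for mt-Co2.

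The tRNAs could not be followed in these libraries. All 22, of 59 to 75 bases, were listed at 0 in KO 1, KO 2, WT 1 and WT 2. So were all 1339 nuclear single-exon genes of at most 80 bases with 1 annotated transcript, while of such genes of over 250 to 300 bases 4.38% and 5.63% were above 0 in KO and 10.5% and 16.5% in WT. Values of long single-exon genes fell on steps of 1 fragment per length less 260 and 250 bases in KO 1 and KO 2 and 250 and 220 bases in WT 1 and WT 2, which is about the length of a fragment. A listed 0 at this size therefore carries no information on the level of a tRNA. The shortest and the longest of the tRNA genes are printed to show their size. They are mt-Ts2, a serine tRNA (chrM:11613-11671, plus strand), and mt-Tl1, a leucine tRNA (chrM:2676-2750, plus strand).
mt-Ts2: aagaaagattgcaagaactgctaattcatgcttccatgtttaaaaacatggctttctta
mt-Tl1: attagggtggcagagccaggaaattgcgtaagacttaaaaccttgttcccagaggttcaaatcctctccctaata

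The steps implied a depth of 6840000 and 5940000 fragments in KO 1 and KO 2 and of 4240000 and 2520000 fragments in WT 1 and WT 2. Between 83.9% and 91.0% of low values lay within 0.1 of a whole number on these steps, so the depths are estimates. By them mt-Co1 had about 11300 and 9660 fragments in KO, against 12000 and 283 fragments in WT. For this gene, counting error was thus small beside the differences between libraries, also in WT 2. Fragments were not estimated for the short genes mt-Nd3, mt-Nd6 and mt-Atp8.

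Taking each chromosome 1 copy together with its gene brought the KO libraries closer where they had differed. In this comparison the gene mt-Co2 made up 49.2% and 89.2% of its sum with Gm28661 in KO 1 and KO 2, against 92.1% and 0% in WT 1 and WT 2. The sum was 2314 and 2233 FPKM in KO, against 4183 and 114 FPKM in WT. The KO libraries thus differed 1.75-fold in mt-Co2 but 1.04-fold in the sum. The 0 of mt-Co2 in WT 2 stood beside 114 FPKM of its copy.

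The gene mt-Nd3 made up 21.5% and 64.1% of its sum with Gm28438 in KO, against 24.4% and 100% in WT. The sum was 245 and 219 FPKM in KO, against 532 and 183 FPKM in WT, so the KO libraries differed 2.66-fold in the gene and 1.12-fold in the sum. With the copy added, both KO libraries were below WT 1. Like most members, the pair then lay between WT 2 and WT 1 in KO.

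For mt-Co3 the larger part was listed under the copy except in WT 2. The copy Gm28437 was at 4077 and 3976 FPKM in KO, against 8203 and 0.85 FPKM in WT, and mt-Co3 made up 8.17% and 8.86% of the sum in KO and 9.17% and 99.6% in WT. The sum was 4439 and 4363 FPKM in KO, against 9031 and 223 FPKM in WT. In KO 1, KO 2 and WT 1 it exceeded mt-Atp6. For mt-Atp6 the split was the reverse, with its copy Gm10925 at 0.02 and 0.04 FPKM in KO and 0 and 2.32 FPKM in WT. The copy of part of mt-Nd4, Gm28439, was listed at 0 in all 4 libraries, and that of part of mt-Co1, Gm29216, was at 2730 and 2929 FPKM in KO, against 5733 and 79.0 FPKM in WT.

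Over the 5 pairs of near-equal length, the KO mean of the sums was 0.435 to 0.559 of WT 1. That range lay within the 0.406 to 0.742 found for the 6 genes above 0 that have an annotated chromosome 1 copy. For the 8 mRNAs and rRNAs without one, the ratio was 0.417 to 0.635, with a median of 0.579, beside a median of 0.904 over all genes tested. These 8 include mt-Atp8, which lies between mt-Co2 and mt-Atp6, whose copies are neighbours on chromosome 1. Sequence outside annotated transcripts was not searched. Some of the 8 also have copies on other chromosomes, taken up under other observations. The lower level in KO than in WT 1 was thus seen in genes with and without an annotated chromosome 1 copy. With the copies added, a setting chosen after the data were seen, limma again called 0 of 15 members with all 4 libraries and 0 of 15 without WT 2.

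**Figure D4:**
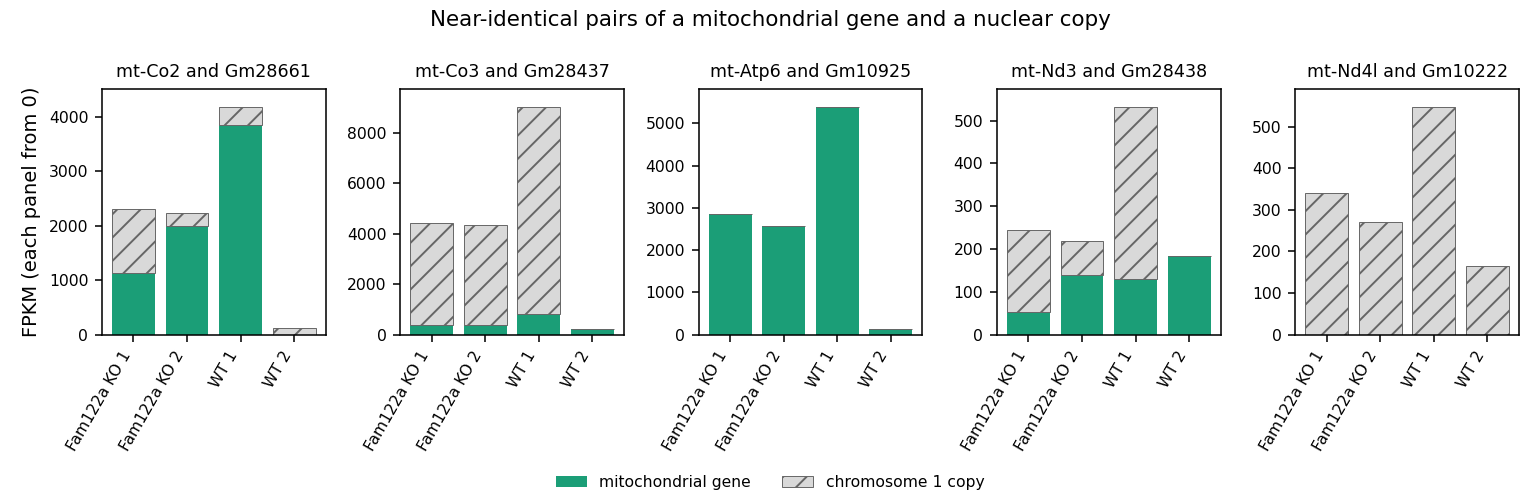
Stacked bars give the FPKM (y axis, from 0, a scale for each panel) listed under a mitochondrial gene and under its near-identical chromosome 1 copy in each KO and WT library (x axis), for 5 pairs. For mt-Co2 and for mt-Nd3 the split differs between KO 1 and KO 2 while the sums, 2314 and 2233 FPKM and 245 and 219 FPKM, are close.

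The order of the mRNAs by level was shared by KO 1, KO 2 and WT 1 and not by WT 2. Over the 11 mRNAs above 0 in all 4 libraries, log2 values of KO 1 and KO 2 had a Pearson correlation of 0.963, and with WT 1 of 0.990 and 0.986. With WT 2 the correlation was -0.434 for KO 1, -0.380 for KO 2 and -0.404 for WT 1. These are descriptions over 11 genes of 1 genome, which share the copies and the length effects described above. The highest of the 11 was 54.0 and 30.4 times the lowest in KO, against 41.4 and 4.53 times in WT. In WT 2 these 11 mRNAs thus spanned a narrower range, with mt-Nd1 the highest and mt-Atp8 the lowest of them, while mt-Co2 was listed at 0. The 2 lowest genes of the other libraries, mt-Nd3 and mt-Nd6, were at 183 and 199 FPKM there, above their values in KO 1, KO 2 and WT 1.

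The make-up of the mitochondrial mRNA, as listed, also differed in WT 2. Complex I mRNAs made up 15.7% and 15.3% of the mRNA sum in KO 1 and KO 2, against 13.3% and 61.7% in WT 1 and WT 2. Complex V made up 45.5% and 39.3% in KO, against 43.3% and 11.3% in WT. Complex IV made up 26.5% and 34.3% in KO, against 33.2% and 17.9% in WT, and complex III 12.3% and 11.1% in KO, against 10.2% and 9.20% in WT. These shares leave out what was listed under the chromosome 1 copies, such as Gm28437 of complex IV, at 4077 and 3976 FPKM in KO. Without the copies, complex IV summed to 2786 and 3633 FPKM in KO, against 4779 and 4156 FPKM for complex V. Outside WT 2, the order of complexes IV and V thus depends on whether the copies are counted. Complex V also holds mt-Atp8, too short to compare with longer genes. The complex I share averaged 15.5% ± 0.330 in KO and 37.5% ± 34.2 in WT (SD, n = 2 each; two-sided exact permutation test, p = 1.0). Against WT 1 alone it was 2.21 percentage points higher in KO, and against WT 2 alone the difference was -46.2 percentage points.

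Nuclear genes that serve the mitochondrial genome did not pass the test with all 4 libraries either, and here too the count turned on the WT library. The lists held 14 genes of mitochondrial DNA replication and packaging, 9 of transcription, 20 of RNA processing and stability (of 21 listed), 17 tRNA synthetases and 8 regulators of mitochondrial biogenesis, all of which were tested. With all 4 libraries limma called 0 of these 68 genes, as it called 0 of all genes. Without WT 2 it called 1, Ppargc1a, as lower, beside 1.42% of all genes called lower. Without WT 1 it called 52 (44 higher and 8 lower), beside 57.4% of all genes called higher and 22.7% called lower. The list medians of the log2 difference were 1.3, 0.65, 1.3, 1.70 and 0.89 with all 4 libraries and 0.44, 0.01, 0.02, 0.54 and 0.25 without WT 2, beside 0.22 and 0.12 over all genes. In the same order of lists, 10, 5, 10, 14 and 7 genes were above 0 without WT 2, and 4, 4, 10, 3 and 1 below. Without WT 2, no list median was thus as low as that of the mitochondrial mRNAs, -0.79, a difference between lists that was not tested.

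Among the factors of transcription, Polrmt, the mitochondrial RNA polymerase, was at 35.9 and 37.2 FPKM in KO 1 and KO 2, against 9.90 and 1.06 FPKM in WT 1 and WT 2. Polrmt was picked by the smallest p of its list in these libraries, so its pattern is no separate support. Both KO libraries were above both WT libraries, a pattern found in 30.8% of all genes, and it did not pass with all 4 libraries (log2 difference 2.99, SE 1.17, limma adjusted p = 0.220) or without WT 2 (1.78, SE 0.19, limma adjusted p = 0.0516). It rose without WT 2 once the Ensembl totals were made equal (1.99, SE 0.21, limma adjusted p = 0.0270). Mterf4 and Mterf2, of the family of mitochondrial termination factors, were at 13.6 and 14.2 FPKM and at 3.44 and 5.09 FPKM in KO. In WT 1 and WT 2 they were at 13.7 and 0 FPKM and at 3.89 and 0.29 FPKM, so that KO and WT 1 were close. Other genes of this list went the opposite way to Polrmt against WT 1. The KO means of Tefm, Tfb2m, Mterf3 and Mterf1b were 0.409, 0.633, 0.636 and 0.416 of WT 1.

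Of the genes that copy and package the DNA, Lonp1, a matrix protease, was at 41.2 and 37.8 FPKM in KO, against 20.1 and 0.29 FPKM in WT. Atad3a, an inner membrane ATPase tied to nucleoids, was at 54.0 and 64.2 FPKM in KO, against 31.1 and 7.60 FPKM in WT. Rnaseh1, which removes RNA from DNA hybrids, was at 21.4 and 20.01 FPKM in KO, against 13.7 and 0.68 FPKM in WT. These 3 were named for having the smallest p of their list in these same libraries, so their pattern is no separate support. Of all genes tested, 30.8% had both KO libraries above both WT libraries. In all 3 both KO libraries were above both WT libraries, and none passed with all 4 libraries or without WT 2. With equal totals and without WT 2, Lonp1 (log2 difference 1.16) and Atad3a (1.13) rose by limma (adjusted p = 0.0412 and 0.0438).

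Among the RNA processing genes, Fastk, the founding member of a family that binds mitochondrial RNA, was at 51.3 and 50.5 FPKM in KO, against 18.9 and 2.1 FPKM in WT. Elac2, which cuts tRNA 3′ ends, was at 18.9 and 20.3 FPKM in KO, against 10.4 and 1.53 FPKM in WT. Angel2 was at 45.4 and 40.2 FPKM in KO, against 28.9 and 1.79 FPKM in WT. None of the 3 passed with all 4 libraries or without WT 2, and of this list only Fastk rose in the setting with equal totals and without WT 2 (log2 difference 1.61, limma adjusted p = 0.0293).

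The synthetases that charge mitochondrial tRNAs with valine, alanine and serine had the smallest p of their list with all 4 libraries. They were picked by that p, so their pattern is no separate support. Vars2 was at 11.2 and 12.5 FPKM in KO, against 3.6 and 0 FPKM in WT. Aars2 was at 8.60 and 9.91 FPKM in KO, against 2.87 and 0 FPKM in WT. Sars2 was at 17.8 and 17.9 FPKM in KO, against 5.63 and 0.48 FPKM in WT. Of all genes tested, 30.8% had both KO libraries above both WT libraries. All 3 were higher in both KO libraries than in both WT libraries and none passed with all 4 libraries or without WT 2. With equal totals and without WT 2, 4 of the 17 synthetase genes rose by limma, namely Lars2, Sars2, Tars2 and Vars2, with log2 differences of 1.54, 1.70, 1.3 and 1.66, beside 8.23% of all genes called higher.

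Of the biogenesis regulators, Ppargc1a, the coactivator PGC-1alpha that drives mitochondrial gene programmes in many tissues, was at 1.27 and 1.03 FPKM in KO 1 and KO 2, against 80.02 and 56.4 FPKM in WT 1 and WT 2. Its log2 difference was -4.99 (SE 0.94) and did not pass with all 4 libraries (limma adjusted p = 0.179). It fell without WT 2 (-5.24, SE 0.31, limma adjusted p = 0.0420), also with equal totals (-4.99, SE 0.33, limma adjusted p = 0.0220). The gene spans 113477 bases, 17.2 times its exonic length, and the 2539 tested coding genes with a ratio over 16 had medians of 2.90 and 3.14 FPKM in KO, against 12.4 and 42.6 FPKM in WT. The part of this difference between long genes in the fall of Ppargc1a was not tested. Its relatives Pprc1 and Ppargc1b were at 16.5 and 22.5 FPKM and at 3.48 and 3.94 FPKM in KO. In WT 1 and WT 2 they were at 6.45 and 1.52 FPKM and at 1.72 and 0.23 FPKM, and they did not pass in these 2 settings. With equal totals and without WT 2, Pprc1 rose (log2 difference 1.64, limma adjusted p = 0.0456).

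**Figure D5:**
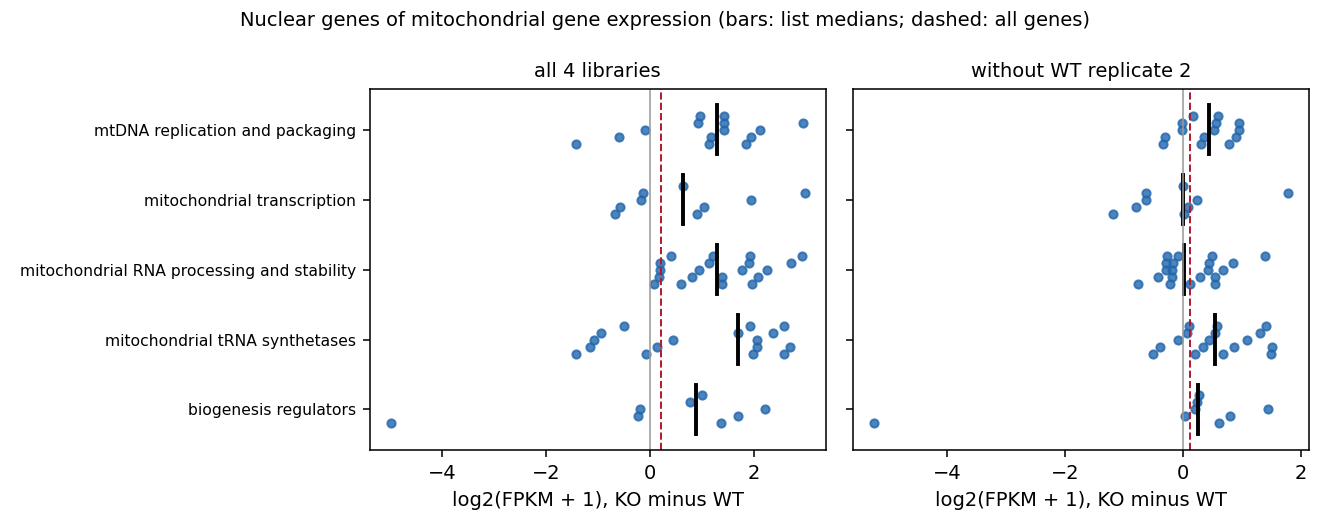
Points give the log2 difference of FPKM + 1, KO minus WT (x axis), of nuclear genes in 5 lists (y axis), with all 4 libraries on the left and without WT replicate 2 on the right. Black bars are list medians and dashed lines the medians of all genes tested, 0.22 and 0.12. The point at the far left of each panel is Ppargc1a, at -4.99 and -5.24.

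Neutrophil transcripts stood in the same order of libraries as most mitochondrial mRNAs. The 8 neutrophil markers summed to 73123 and 63594 FPKM in KO 1 and KO 2, against 170092 and 336 FPKM in WT 1 and WT 2. All 8 were at 1 FPKM or more in every library. The 8 erythroid markers summed to 60063 and 80002 FPKM in KO, against 52039 and 192 FPKM in WT. The 6 T and NK cell markers summed to 390.4 and 310.4 FPKM in KO, against 649.5 and 8.15 FPKM in WT. Outside WT 2 most of that sum was Nkg7, at 378 and 299 FPKM in KO, against 628 and 3.42 FPKM in WT, whereas Cd3e was at 1.51 and 2.01 FPKM in KO, against 3.31 and 3.76 FPKM in WT. Of these 6, Trac and Klrb1c were listed at 0 in WT 2. The neutrophil markers alone held 8.79% and 7.79% of the summed FPKM in KO and 16.2% and 0.0260% in WT. The erythroid markers held 7.22% and 9.80% in KO and 4.96% and 0.015% in WT. By contrast, the 12 stem cell markers held 0.066% and 0.068% in KO and 0.057% and 0.038% in WT. The sort gate was set to leave out cells with lineage markers, and which cells these transcripts came from was not tested. The part of the neutrophil markers in the mitochondrial values was not tested.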

How the data were processed

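RNA from 4 libraries was made into cDNA with the SMART-Seq v4 kit, per the labels' protocols. Each deposited file lists a single value for every feature, without a header line, and the authors' unit was inferred to be FPKM, since the low values fall on steps of 1 fragment. Tools named in the submitters' processing notes are HISAT2 2.1.0, STAR 2.7.1a and bcl2fastq, with the builds GRCm38.p5 and mm10 and no roles. The sources used here give neither the counting tool nor how it treated reads that match several places. Of 87703 features, 35791 were MSTRG loci that name no gene, with 1.74% and 1.81% of the summed FPKM in KO and 9.14% and 53.9% in WT. They stayed in the totals but were not tested. A symbol was found for 51633 of 51912 Ensembl genes, and 51719 were in GENCODE M21, which gave coordinates and sequences.

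KO and WT were fitted in limma 3.58.1 under R 4.3.3 (trended variance) on log2(FPKM + 1), over genes at 1 FPKM or more in at least 2 libraries, with Benjamini-Hochberg adjusted p under 0.05 called. The fit was also run on simulated data, in which every library was drawn with the mean and spread of the KO libraries. Those data held no library like WT 2, so that run does not bear on how the fit handles WT 2. Shares and ratios were tested with an exact permutation test over libraries. The mitochondrial transcripts were matched to all GENCODE M21 transcripts with blastn 2.17.0 (at least 60 bases and 85% identity). Named genes are all members, the chromosome 1 copies, and the 3 genes with the smallest p in each nuclear list. Others named are those that passed a test, and the transcription genes that were lower in KO than in WT 1. The members and lists were chosen with earlier results of these data known. The replicates are separate pools. Other settings tried were scaling, the denominator, adding the copies, the pseudocount, the filter, a replicate block and leaving out each library. The values of 1 further list of blood cell markers are not reported here.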

Additional observations from a re-analysis of the deposited data

How the results depend on the processing

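The choice of WT library decided most results. Leaving out 1 library at a time, genes called ranged from 0 to 11126, mitochondrial members called from 0 to 11 and the median log2 difference of the mRNAs from -0.79 to 1.33. The total share of summed FPKM ranged from -0.787 to 1.24 percentage points, KO minus WT, the complex I share of mRNA from -46.2 to 2.21, and the log2 ratio of rRNA to mRNA from -0.89 to -0.28. Without WT 2, 221 genes were called, and the mRNA median, the total share and the complex I share reversed (-0.79, -0.787 and 2.21); without WT 1, 11126 genes and 11 members were called. With equal Ensembl totals and without WT 2, 1667 genes and 2 members were called and the mRNA median was -0.55. With the chromosome 1 copies added and without WT 2, 231 genes were called and the median was -0.81. Both settings were chosen after the data were seen. The cause of these reversals was not tested.

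The replicate block, no filter, a filter at 5 FPKM in 2 libraries, a pseudocount of 0.1 and equal totals with all 4 libraries each left 0 genes and 0 members called, with an mRNA median of 0.16 to 0.27. Whether the numbers pair the libraries could not be settled. The deviations of same-numbered libraries correlated at 0.055 over 18214 genes, but WT 2 stood apart, so this value cannot exclude pairing. With the replicate block 0 genes were called, as without it, so that count does not bear on pairing either. Gene length below that of a fragment limits the values of mt-Atp8 and the tRNAs. Those of mt-Nd3, at 348 bases, and mt-Nd4l, at 297 bases, are also less certain, since these genes are not much longer than a fragment.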

Other observations

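Other nuclear copies of mitochondrial genes had low values in these files. Beyond chromosome 1, blastn found 14 further annotated copies, of which 13 had a value. The multi-exon gene Cep295 on chromosome 9, whose transcript holds stretches like mt-Tl1, mt-Tn and mt-Ty, was set aside from these; it was at 10.9 and 11.5 FPKM in KO and 11.01 and 36.6 FPKM in WT. Among the 13, the highest value was 2.60 FPKM, of Gm11408, a copy of mt-Nd6 with 93.6% identity over 519 bases, in WT 2; it was listed at 0 in KO 1, KO 2 and WT 1. Gm13340, a copy of the whole of mt-Co1 on chromosome 2 with 37 mismatches over 1545 bases, was listed at 0 in KO 1 and KO 2, against 0.18 and 0 FPKM in WT 1 and WT 2. Gm13341, a copy of mt-Co2 with 16 mismatches and 12 gap bases, was at 1.74 and 0.80 FPKM in KO and 1.19 and 0 FPKM in WT. Copies that differ from the mitochondrial gene at many bases thus had low values, and 5 of them were above 0 in any library. Of the 7 near-identical copies on chromosome 1, 6 were above 0. Low values occurred among these too: Gm10925, the copy of mt-Atp6, reached no more than 2.32 FPKM, in WT 2.

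The mRNAs read from the same strand shared a base composition that mt-Nd6 did not. G made up 5.90% to 16.1% of the bases of the 12 mRNAs on the plus strand and 28.1% of those of mt-Nd6, and C made up only 6.00% of mt-Nd6. The annotated sequences of mt-Co3, mt-Nd4 and mt-Cytb end in a single T past the last full codon, a stop codon that the added poly(A) tail is known to complete.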
